A study of Mus musculus with 12 samples.

Results

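Ribosome biogenesis is the work of making ribosomal RNA in the nucleolus, cutting and modifying it, and assembling it with ribosomal proteins into the small (40S) and large (60S) subunits. The factors that do this work form well-known modules: the UTP-A complex, which joins the nascent precursor and is needed for its transcription, the rest of the small-subunit (SSU) processome, the box C/D and box H/ACA small nucleolar ribonucleoproteins (snoRNPs), which methylate and pseudouridylate ribosomal RNA, and the PeBoW complex and other 60S factors. Cells that grow or are activated are known to raise many of these genes, and the transcription factor MYC is a known activator of them.

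The ribosome biogenesis factors described here are genes whose symbols match a fixed pattern (names beginning with Utp, Nop or Rrp followed by a digit, the 3 Noc genes, and 13 further symbols such as Fbl, Dkc1, Ncl and Npm1) and whose raw counts summed to at least 50 over 12 libraries. Of 37775 gene symbols, 44 matched the pattern and all 44 passed the count limit. All 44 were among the 22118 genes that passed the filter on low counts, and 43 had at least 10 counts in every library. The exception was Utp14b-ps1, a processed pseudogene.

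RNA was sequenced from 4 monocyte-macrophage (Mo-Mac) fractions with 3 libraries each. They came from the ear skin of wild-type (WT) BALB/c mice with IgE-mediated chronic allergic inflammation (IgE-CAI), given 300 μg of anti-TNP IgE intravenously and 10 μg of TNP-conjugated ovalbumin in the ear skin a day later, and were sorted on day 5. The fractions were Ly6ChiPD-L2lo classical monocytes (Classical mono), Ly6ChiPD-L2hi early classical monocyte-derived macrophages (Early CMDM), Ly6CloPD-L2hi late classical monocyte-derived macrophages (Late CMDM) and Ly6CloPD-L2lo resident-like macrophages (Resident-like). All 4 came from challenged skin, so there is no fraction from unchallenged skin among them, and the mice were young adult males, as the methods give for the whole study. No source used here says that the 3 libraries of a fraction came from separate mice, so p-values measure the spread between these libraries only. The fractions are bulk samples, in which fewer cells of a type and less RNA per cell cannot be told apart. They were sorted on the same day, so a step between fractions is a difference between populations, not a change followed over time.

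Total counts were 12537178 to 19844113 per library, and the 44 genes took 0.182% to 0.248% of them. Levels below are CPM, that is, counts relative to the library total after scaling by trimmed means (TMM), and 3 counts correspond to 0.151 to 0.239 CPM. Markers of other cells differed between the fractions. The summed level of 6 keratinocyte genes was 17068 to 27241 CPM in the early CMDM libraries and 1868 to 4044 CPM in the other 9, and no gene of that list was at 0 in any fraction. Krt14, a keratin of basal keratinocytes, was at 2916 to 4222 CPM in early CMDMs. Ptprc, which encodes the leukocyte antigen CD45 used in the sort, was at 96.7 to 133 CPM in early CMDMs and 667 to 766 CPM in classical monocytes. It was at 193 to 209 CPM in late CMDMs and 385 to 467 CPM in resident-like macrophages. The 10 monocyte-macrophage genes listed, Ptprc among them, summed to 2466 to 3508 CPM in early CMDMs against 5914 to 10478 CPM elsewhere. Lyz2 carried much of that sum, at 1528 to 1956 CPM against 3523 to 7952 CPM. Against classical monocytes, Ptprc, Itgam, Lyz2, Ly6c2 and Ccr2 were lower in early CMDMs without overlap. Csf1r, Fcgr1, Adgre1 and Cd68 overlapped, and Pdcd1lg2 was higher. The 6 fibroblast genes summed to 2983 to 5579 CPM in classical monocytes and early CMDMs against 275 to 498 CPM in the other 2 fractions. The 6 dendritic cell genes summed to 931 to 1237 CPM in resident-like macrophages and 156 to 268 CPM in the other 3 fractions, and among them Cd207, which encodes the Langerhans cell lectin langerin, was at 678 to 918 CPM against 31.1 to 75.8 CPM. Epcam was also highest in resident-like macrophages, at 182 to 237 CPM. Flt3 went the other way, at 60.4 to 80.8 CPM in classical monocytes and 21.7 to 30.8 CPM in resident-like macrophages. Ccr7 and Zbtb46 overlapped between these 2 fractions, and Xcr1 was at 2.96 to 4.60 CPM over all libraries. The 6 T cell genes summed to 139 to 184 CPM in classical monocytes and 19.5 to 47.1 CPM elsewhere. The contribution of such cells to the results below was not tested.

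The genes of the box H/ACA snoRNP had the largest median change of the role groups in both CMDM comparisons, so the stretch before the start of each is printed here. The sequences are from RefSeq on GRCm38.p6, written 5′ to 3′ on the strand of the gene and ending before the annotated transcript. Capitals mark CCGGAAG or its reverse complement, the core of a site for ETS family transcription factors. They lie at chr3:129831397-129831646 (- strand) for Gar1, chr11:51619523-51619734 (+ strand) for Nhp2, chrX:75095604-75095853 (+ strand) for Dkc1 and chr2:112261676-112261925 (+ strand) for Nop10.
Gar1: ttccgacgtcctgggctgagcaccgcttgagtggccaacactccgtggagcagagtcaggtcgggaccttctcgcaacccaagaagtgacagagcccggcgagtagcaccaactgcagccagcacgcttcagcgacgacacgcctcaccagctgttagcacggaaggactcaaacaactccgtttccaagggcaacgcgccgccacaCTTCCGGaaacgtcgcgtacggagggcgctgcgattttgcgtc
Nhp2: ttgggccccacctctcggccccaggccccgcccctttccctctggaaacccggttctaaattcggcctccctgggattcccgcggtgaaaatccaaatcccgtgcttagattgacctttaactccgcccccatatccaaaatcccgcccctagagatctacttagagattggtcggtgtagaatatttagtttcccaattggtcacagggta
Dkc1: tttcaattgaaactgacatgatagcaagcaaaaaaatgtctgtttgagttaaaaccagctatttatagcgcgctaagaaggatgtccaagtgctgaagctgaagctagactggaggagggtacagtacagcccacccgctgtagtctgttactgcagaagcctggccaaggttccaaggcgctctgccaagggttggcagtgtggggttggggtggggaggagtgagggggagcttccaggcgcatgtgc
Nop10: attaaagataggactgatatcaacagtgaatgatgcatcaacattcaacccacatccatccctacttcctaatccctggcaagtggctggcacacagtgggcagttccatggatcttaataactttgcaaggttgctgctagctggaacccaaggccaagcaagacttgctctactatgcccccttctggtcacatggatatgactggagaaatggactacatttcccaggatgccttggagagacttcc
The match in Gar1 begins 43 bases before the RefSeq start. Nhp2 also has 1, which begins 23 bases before its RefSeq start, inside the stretch that GENCODE annotates as transcribed and that is not printed.

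Over all members, 35 of 44 had a promoter sequence, and 250 bases before each RefSeq start were searched on both strands. CCGGAAG was present in 7 of the 35 (20%), against 7.83% of 27025 gene symbols and 12.6% of the 13629 that were also tested for expression. CACGTG, the E-box bound by MYC and its partner MAX, was present in 5 (14.3%), against 6.86% and 8.71%. The 5 were Nop2, Rrp7a, Utp14b, Utp18 and Utp25. The stretches with the E-box of Utp14b (chr1:78658190-78658439) and of Utp25 (chr1:193129984-193130233) lie inside the genes as GENCODE annotates them. The E-box was found in 2 of the 14 that were higher in early CMDMs than in classical monocytes (Utp18 and Utp25) and in 3 of the other 21, which is 14.3% of each. The letters do not overlap between the motifs, and a match describes the sequence only.

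The summed level of the 44 genes was highest in early CMDMs. It was 1865, 1887 and 1926 CPM in the 3 classical monocyte libraries, 2329, 2411 and 2154 in early CMDMs, 1916, 2002 and 1907 in late CMDMs and 1946, 2054 and 2072 in resident-like macrophages. All 3 early CMDM libraries lay above the other 9, and the other fractions lay close to one another. Ncl and Npm1 made up much of the sum. Without them the sum was 1386 to 1552 CPM in early CMDMs, and 1398 CPM in the highest classical monocyte library, so that the ranges overlapped. By gene, the mean was highest in early CMDMs for 22 of the 44, where 29.5% of all tested genes had their highest mean, and lowest in late CMDMs for 17 of 44, where 19.6% of all tested genes had their lowest.

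**Figure D1:**
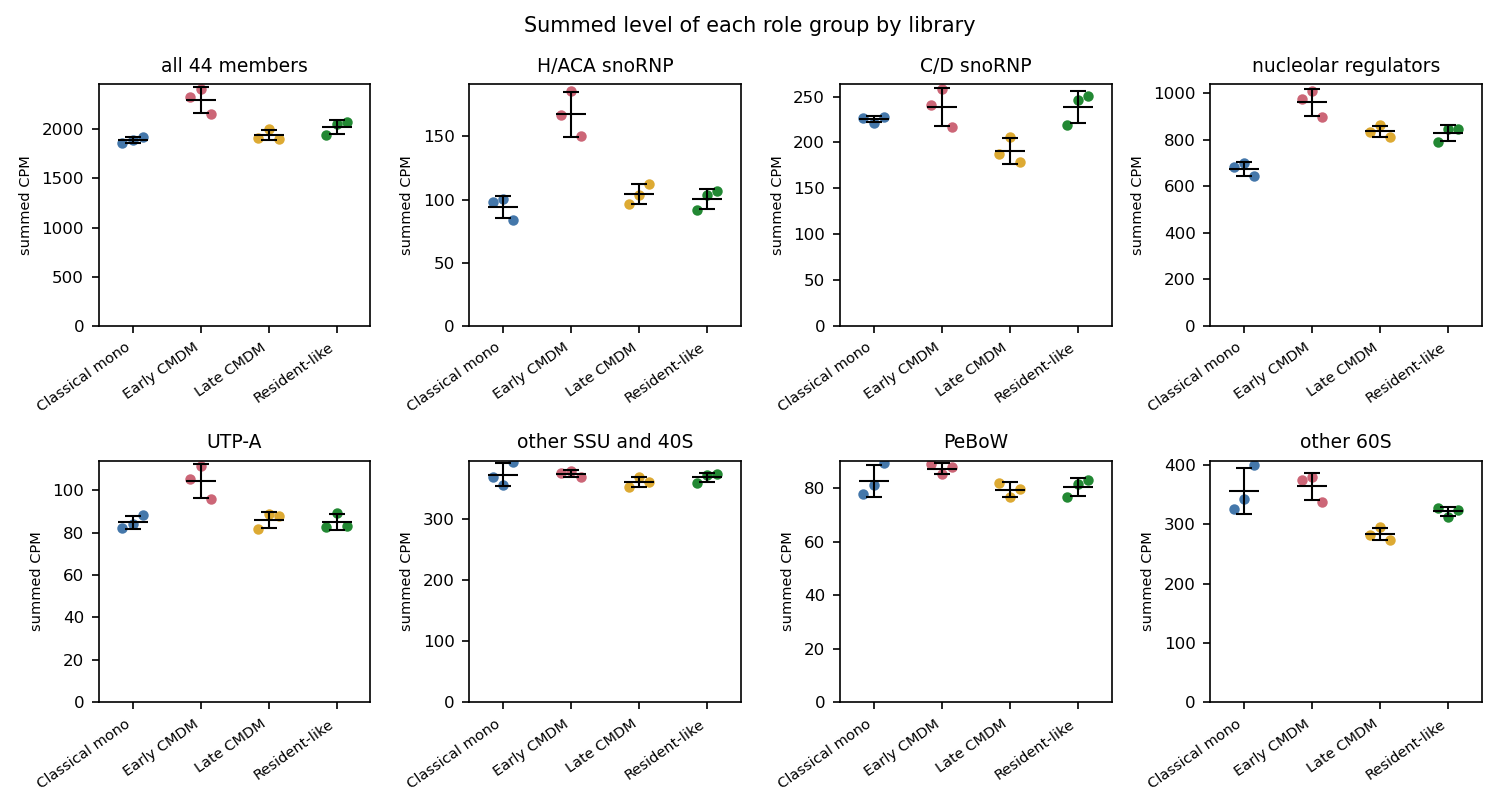
Summed CPM of all 44 members and of 7 role groups (y axis, from 0) in the 4 fractions (x axis). Points are the 3 libraries of a fraction, and bars give the mean ± SD. The early CMDM points lie above all others for the full list, the UTP-A genes, the box H/ACA genes and the nucleolar regulators.

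Levels per kilobase of transcript are CPM divided by the length of the longest transcript tagged as principal in GENCODE M21. They compare genes only as far as that transcript is the one present, which was not tested. The lengths used were 8202 bases for Ncl and 10012 for Wdr12, and a shorter transcript would place both higher. Npm1, the abundant nucleolar chaperone nucleophosmin, was far above the rest at 203 CPM per kilobase, as a mean over the fractions. It was followed by Fbl at 65.99, Nhp2 at 60.9, Nop58 at 46.1 and Ncl at 45.5. Within the H/ACA snoRNP, whose 4 proteins form one particle, Nhp2 stood above Gar1 (17.4), Nop10 (14.1) and Dkc1 (5.51). The lowest genes by this measure were Wdr12 (1.84), Utp25 (1.58) and the pseudogene Utp14b-ps1 (0.245). Utp14b overlaps Acsl3 on chromosome 1 and closely resembles Utp14a, so that its counts are uncertain.

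The step from classical monocytes to early CMDMs asks which genes differ as PD-L2 appears on Ly6Chi cells. By the quasi-likelihood test of edgeR, with p-values adjusted by Benjamini-Hochberg over all tested genes and a threshold of 0.05, 16 of the 44 were higher and 4 lower in early CMDMs, where 24.2% of all tested genes were higher and 20.6% lower. The median log2 fold change was 0.25 for the 44 and -0.01 for all tested genes. None of the 20 called genes reached a 2-fold change. The 16 were Gar1, Nhp2, Rrp8, Dkc1, Wdr75, Ncl, Nop58, Utp25, Utp20, Rrp12, Rrp15, Wdr43, Npm1, Mybbp1a, Nop16 and Utp18, and the 4 were Rrp1b, Nop9, Utp23 and Rrp7a. Of the 20 calls, 13 held without each of the 12 libraries in turn, and the others were Mybbp1a, Nop16, Nop9, Npm1, Utp18, Utp23 and Utp25, with adjusted p up to 0.141. Under DEGES scaling, the strategy behind the study's own test, the median of all tested genes shifted to 0.12, and 26 members were higher and 3 lower. Of all tested genes, 30.3% were then higher and 15.7% lower.

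From early to late CMDMs, the step in which Ly6C is lost, the direction was the opposite. No member was higher and 15 were lower in late CMDMs, where 14.4% of all tested genes were higher and 17.5% lower. At an unadjusted p under 0.05, 1 member was higher by edgeR, and DESeq2 called 0 higher. The median log2 fold change was -0.21 for the members and 0.02 for all tested genes. The 15 were Gar1, Dkc1, Wdr75, Nhp2, Utp25, Nop53, Bop1, Wdr43, Utp20, Mybbp1a, Fbl, Rrp1b, Nop16, Nop56 and Rrp15. Of these calls, 10 held without each library in turn, and Nop16, Nop56, Rrp15, Rrp1b and Utp25 lost theirs at least once, with adjusted p up to 0.161. This comparison uses the same early CMDM libraries as the one before, so the directions are not independent of each other.

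Late CMDMs set directly against classical monocytes had 4 members higher and 10 lower, where 18.1% of all tested genes were higher and 17.5% lower. The median log2 fold change was -0.01 for both the members and all tested genes. The 4 higher genes were Rrp8, Ncl, Nop58 and Wdr12, and the 10 lower were Rrp1b, Nop9, Fbl, Bop1, Nop56, Noc4l, Noc2l, Nop53, Rrp36 and Rrp7a. Without the third classical monocyte library these counts fell to 2 higher and 6 lower, and without the second late CMDM library the count of lower genes was also 6. Of the 14 calls, 8 held without each library in turn, and the others (Noc2l, Noc4l, Rrp36, Rrp7a, Rrp8 and Wdr12) reached adjusted p up to 0.179.

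Resident-like macrophages differed from late CMDMs in few members. There were 4 higher (Utp25, Fbl, Nop16 and Nop56) and 1 lower (Rrp8), where 12.7% of all tested genes were higher and 15.5% lower. The median log2 fold change was 0.05 for the members and 0.00 for all tested genes. With library size as the only scaling, the median of all tested genes shifted to -0.13 and the counts became 3 higher and 6 lower. Of all tested genes, 8.4% were then higher and 21.6% lower. Without the second resident-like library 2 members were lower.

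Compared with early CMDMs, resident-like macrophages had no member higher and 13 lower, where 21.4% of all tested genes were higher and 25.1% lower. At an unadjusted p under 0.05, 1 member was higher by edgeR, and DESeq2 called 0 higher. Without the first resident-like library 3 were higher. The 13 lower genes were Rrp8, Dkc1, Wdr75, Gar1, Nhp2, Noc3l, Nop53, Utp20, Wdr43, Mybbp1a, Bop1, Ncl and Nop58. Of these, Bop1, Noc3l, Nop58 and Utp20 lost their calls without at least 1 library, with adjusted p up to 0.198. The median log2 fold change was -0.11 for the members and 0.03 for all tested genes. Scaling by library size moved the second value to -0.14 and the count of lower members to 22, where 32% of all tested genes were lower.

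Against classical monocytes, resident-like macrophages had 4 members higher (Utp25 not among them at adjusted p = 0.0534) and 3 lower, where 10.8% of all tested genes were higher and 12.9% lower. The 4 were Nop16, Ncl, Nop58 and Utp18, and the 3 were Rrp1b, Nop9 and Bop1. Nop16, Ncl and Rrp1b held without each library in turn, and the other 4 calls reached adjusted p up to 0.174. The median log2 fold change was -0.01 for the members and 0.00 for all tested genes. With library size as the only scaling, the median of all tested genes shifted to -0.17, and 0 members were higher and 9 lower. Of all tested genes, 6.5% were then higher and 20.5% lower. The count of higher genes was 2 without the second classical monocyte library and 2 without the second resident-like library.

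**Figure D2:**
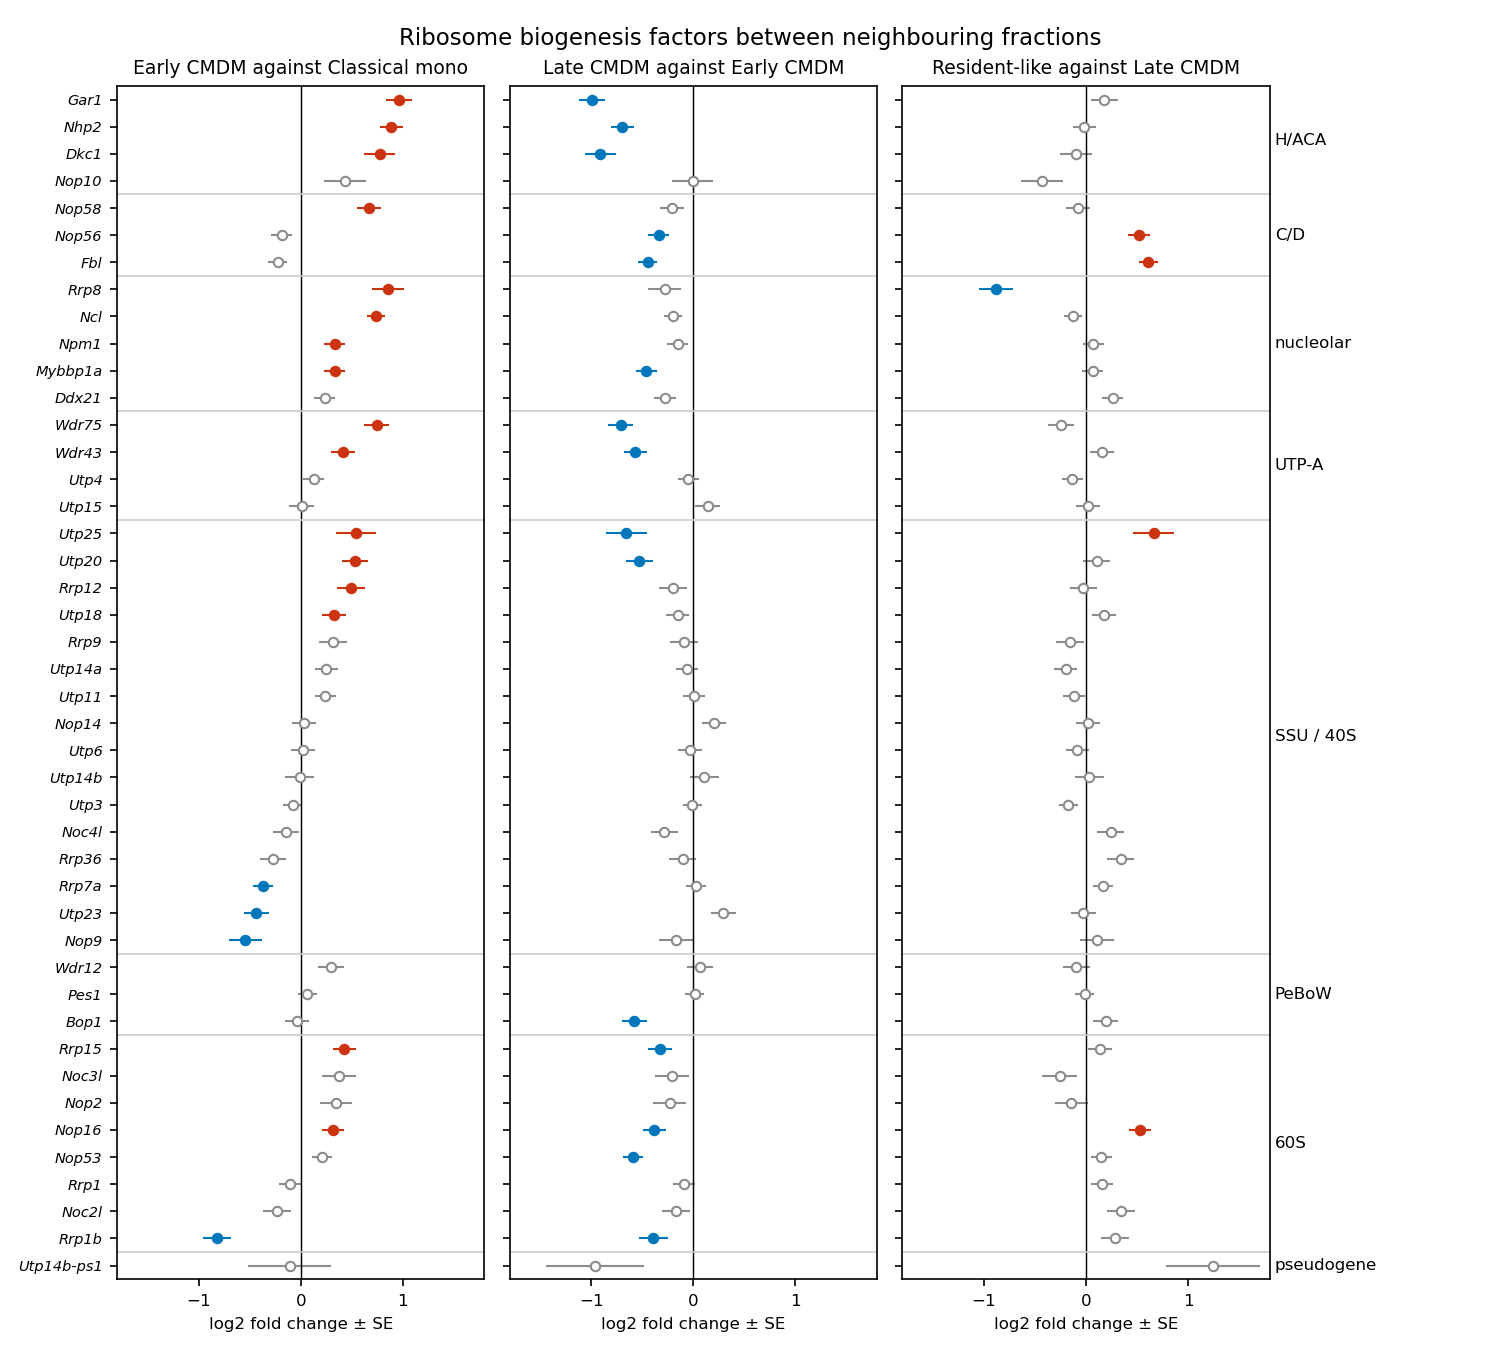
Log2 fold change ± SE (x axis) of the 44 members (rows, grouped by role) between neighbouring fractions (panels). Filled red points were higher and filled blue points lower at an adjusted p under 0.05 in edgeR's test, and open points did not pass. Red points dominate the first panel (16 of 20 called), and all 15 called points in the second are blue.

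Scaling bears on all of these directions. When the libraries were scaled by 10 genes shared by leukocytes instead of by TMM, the median log2 fold change of all tested genes was 1.74 in early CMDMs against classical monocytes and -0.91 in late against early CMDMs, and all 44 members followed it, as 44 higher and 44 lower. Relative to the median of all tested genes, the members' median was 0.26 by TMM and 0.28 by the leukocyte genes in the first comparison, and -0.23 and -0.26 in the second. A change of scaling moves all genes of a library by nearly the same amount, so these relative values had to stay close and cannot test the direction. Scaling by the leukocyte genes turned late CMDMs against classical monocytes to 36 members higher and 0 lower, where 65.5% of all tested genes were higher. It turned resident-like macrophages against late CMDMs to 0 higher and 35 lower, where 57.6% of all tested genes were lower. The medians of all tested genes were then 0.81 and -0.68. All 4 calls of lower members in early CMDMs against classical monocytes turned with this scaling (Rrp1b, now at 0.92, Nop9 at 1.20, Utp23 and Rrp7a). The sign also turned for the called Nop9 (0.11) in late CMDMs against classical monocytes and for the called Fbl (-0.076), Nop56 (-0.16), Utp25 (-0.014) and Polr1a (-0.28, an RNA polymerase I gene) in resident-like macrophages against late CMDMs. None of these was called by the leukocyte scaling in edgeR's test (adjusted p from 0.278 to 0.962). Directions given for the genes below are those by TMM.

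The box H/ACA snoRNP guides the conversion of uridine to pseudouridine in ribosomal RNA. Of its 4 protein genes, 3 were higher in early CMDMs than in classical monocytes and near the classical monocyte level in late CMDMs. Of all tested genes, 24.2% were higher in early CMDMs than in classical monocytes and 17.5% lower in late than in early CMDMs. Gar1, a core protein of the particle, was at 19.1, 16.5 and 17.2 CPM in classical monocytes, 32.97, 39.9 and 30.03 in early CMDMs, 15.4, 18.4 and 17.7 in late CMDMs and 17.4, 21.3 and 19.9 in resident-like macrophages. The 3 early CMDM libraries stood above the other 9 without overlap. The log2 fold change was 0.96 ± 0.13 (SE, adjusted p = 1.21e-05) in early CMDMs against classical monocytes, a 1.95-fold level, and -0.99 ± 0.13 (SE, adjusted p = 2.07e-05) in late against early CMDMs. Resident-like macrophages differed from late CMDMs by 0.18 ± 0.13 (SE, adjusted p = 0.336), which did not pass.

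Nhp2, which binds the guide RNA, had 51.1, 53.6 and 44.03 CPM in classical monocytes, 90.3, 99.9 and 84.9 in early CMDMs, 50.9, 53.9 and 64.9 in late CMDMs and 52.6, 54.9 and 60.4 in resident-like macrophages. Again the early CMDM libraries lay above all others. The change was 0.89 ± 0.11 (SE, adjusted p = 7.94e-06) into early CMDMs, -0.70 ± 0.11 (SE, adjusted p = 0.000173) into late CMDMs and -0.02 ± 0.11 (SE, adjusted p = 0.934) from late CMDMs to resident-like macrophages. Dkc1 encodes dyskerin, the pseudouridine synthase, which is also part of telomerase. It was at 14.7, 13.2 and 13.6 CPM in classical monocytes, 25.2, 26.6 and 19.2 in early CMDMs, 11.9, 12.3 and 13.5 in late CMDMs and 11.5, 9.63 and 14.2 in resident-like macrophages. The lowest early CMDM library, the third, was still above the other 9. Dkc1 was higher by 0.77 ± 0.15 (SE, adjusted p = 0.00051) on the log2 scale in early CMDMs than in classical monocytes, and late CMDMs stood at -0.91 ± 0.15 (SE, adjusted p = 0.000241) against early CMDMs. Resident-like macrophages were at -1.01 ± 0.15 (SE, adjusted p = 4.53e-05) against early CMDMs, one of the 2 members that differed over 2-fold there, and at -0.10 ± 0.16 (SE, adjusted p = 0.7) against late CMDMs. These 3 genes kept their calls in both CMDM comparisons without each library in turn.

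Nop10, the smallest protein of the particle, did not pass in any of the 3 steps. Its levels were 13.5, 17.02 and 9.35 CPM in classical monocytes, 18.2, 19.6 and 16.2 in early CMDMs, 18.1, 19.1 and 16.6 in late CMDMs and 9.96, 17.4 and 12.5 in resident-like macrophages. The classical monocyte and resident-like libraries were widely spread and overlapped the CMDM libraries. The log2 differences were 0.44 ± 0.21 (SE, adjusted p = 0.0974), -0.01 ± 0.20 (SE, adjusted p = 0.984) and -0.43 ± 0.21 (SE, adjusted p = 0.136) for the 3 steps in order. The first passed under DEGES scaling (adjusted p = 0.0383) and the third with library size alone (adjusted p = 0.0491). With a replicate block in edgeR's model the first (adjusted p = 0.0229) and the third (adjusted p = 0.0389) both passed.

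**Figure D3:**
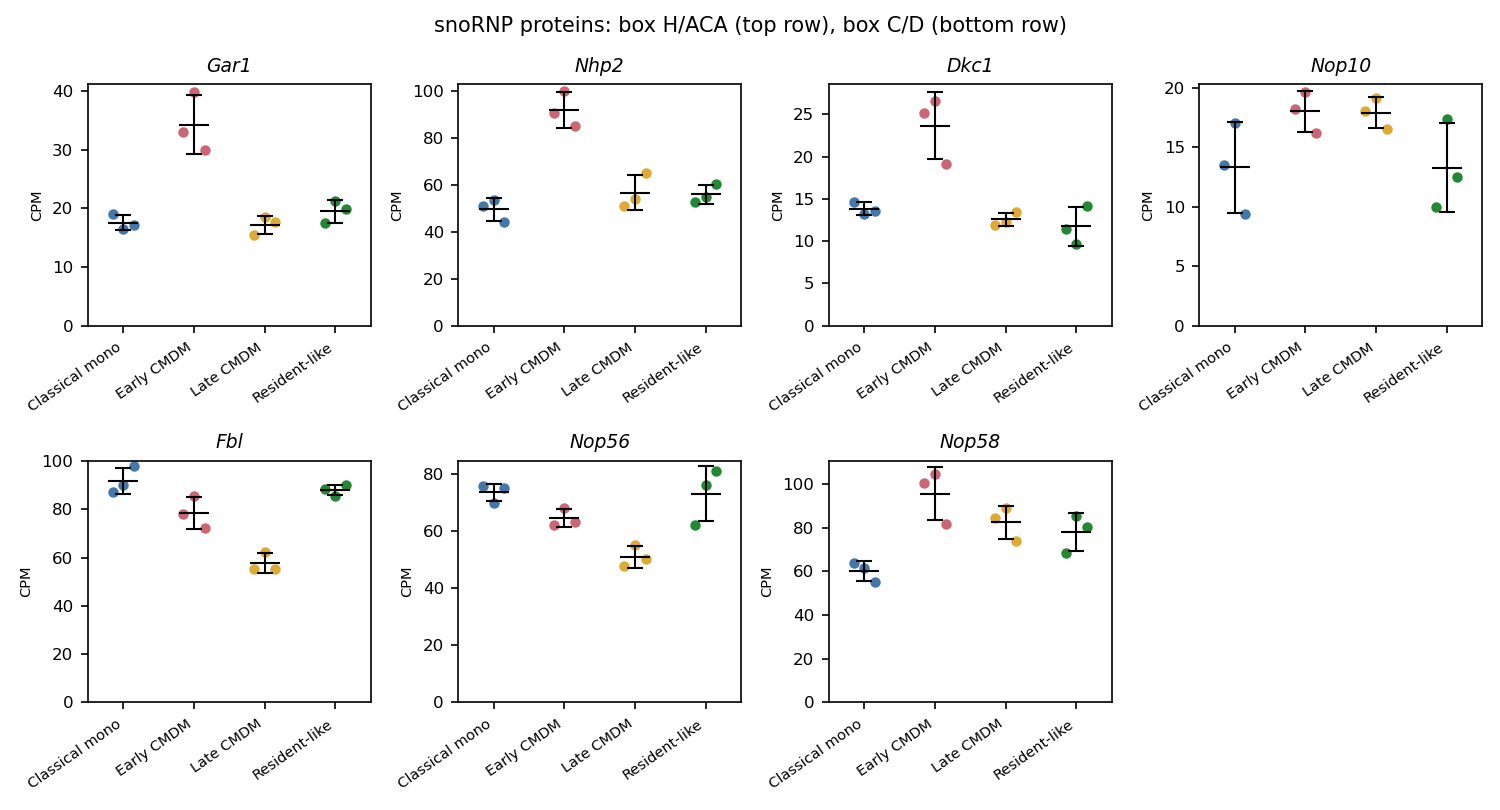
CPM (y axis, from 0, own scale per panel) of the 4 box H/ACA genes in the top row and the 3 box C/D genes in the bottom row, in the 4 fractions (x axis). Points are libraries, and bars give the mean ± SD of 3. Gar1, Nhp2 and Dkc1 peak in early CMDMs, Fbl and Nop56 have their lowest points in late CMDMs, and Nop58 is lowest in classical monocytes.

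The box C/D snoRNP methylates ribosomal RNA on the ribose, and its 3 protein genes did not move as one. Fbl, which encodes the methyltransferase fibrillarin, was at 87.3, 90.3 and 97.8 CPM in classical monocytes, 77.9, 85.5 and 72.2 in early CMDMs, 55.3, 62.5 and 55.1 in late CMDMs and 88.4, 85.7 and 89.96 in resident-like macrophages. Late CMDMs were lowest, without overlap with any other fraction, while the resident-like libraries overlapped those of classical monocytes and lay just above those of early CMDMs. Into early CMDMs Fbl changed by -0.23 ± 0.09 (SE, adjusted p = 0.0593), which did not pass, although DESeq2 put it at an adjusted p of 0.0473. It was lower in late than in early CMDMs at -0.45 ± 0.09 (SE, adjusted p = 0.00159) and higher in resident-like macrophages than in late CMDMs at 0.61 ± 0.09 (SE, adjusted p = 0.000146).

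Nop56, a scaffold protein of the particle, followed the order of Fbl. Its levels were 75.5, 69.8 and 74.8 CPM in classical monocytes, 62.1, 67.99 and 63.1 in early CMDMs, 47.6, 54.9 and 49.96 in late CMDMs and 62.2, 75.9 and 80.8 in resident-like macrophages. All libraries of late CMDMs were again below the others, and the first resident-like library stood apart from its group at the level of the early CMDMs. The steps were -0.19 ± 0.10 (SE, adjusted p = 0.155), -0.34 ± 0.10 (SE, adjusted p = 0.0201) and 0.52 ± 0.10 (SE, adjusted p = 0.00143). The second of these calls was lost without the second early CMDM library and without the first or the third late CMDM library, with an adjusted p up to 0.0904. Nop58, the paralogous scaffold protein that pairs with Nop56, had 63.8, 61.4 and 54.9 CPM in classical monocytes, 100.5, 105 and 81.6 in early CMDMs, 84.3, 88.97 and 74.1 in late CMDMs and 68.2, 85.2 and 80.4 in resident-like macrophages. Here the classical monocytes were lowest and separate from the other 3 fractions, which overlapped. Nop58 was higher by 0.67 ± 0.12 (SE, adjusted p = 0.000205) in early CMDMs than in classical monocytes, and the later steps of -0.21 ± 0.12 (SE, adjusted p = 0.188) and -0.08 ± 0.12 (SE, adjusted p = 0.657) did not pass. Late CMDMs thus had less Fbl (-0.67 ± 0.09) and Nop56 (-0.53 ± 0.10) but more Nop58 (0.46 ± 0.12) than classical monocytes, with adjusted p of 3.4e-05, 0.000832 and 0.00617.

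Among the nucleolar chaperones and regulators of ribosomal DNA transcription, 4 of 5 were higher in early CMDMs than in classical monocytes and 1 of 5 was lower in late than in early CMDMs, where 24.2% of all tested genes were higher and 17.5% lower. Ncl encodes nucleolin, an abundant RNA-binding protein of the nucleolus. It was at 270.4, 278 and 271 CPM in classical monocytes, 471, 478 and 423 in early CMDMs, 396, 410.2 and 387 in late CMDMs and 352, 373 and 367 in resident-like macrophages. The 4 fractions did not overlap at all, in the order early CMDMs, late CMDMs, resident-like macrophages and classical monocytes. Of the neighbouring steps only the first passed, at 0.74 ± 0.09 (SE, adjusted p = 3.87e-06), a 1.67-fold level. The others were -0.20 ± 0.09 (SE, adjusted p = 0.0968) and -0.13 ± 0.09 (SE, adjusted p = 0.305), while late CMDMs remained above classical monocytes by 0.54 ± 0.09 (SE, adjusted p = 0.00015) and resident-like macrophages by 0.41 ± 0.09 (SE, adjusted p = 0.00233). The step from early to late CMDMs passed with DESeq2 (adjusted p = 0.0396) and under DEGES scaling (0.0267). With library size alone the step to resident-like macrophages passed (0.0337) and their difference from classical monocytes did not (0.0563).

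Npm1, the histone and ribosomal protein chaperone nucleophosmin, had 303, 309 and 257 CPM in classical monocytes, 367, 382 and 346 in early CMDMs, 335, 333 and 315 in late CMDMs and 305, 363 and 365 in resident-like macrophages. The early CMDM libraries lay above those of classical monocytes and late CMDMs, and the resident-like libraries spread over the range of the others. Npm1 was higher by 0.33 ± 0.10 (SE, adjusted p = 0.0156) in early CMDMs than in classical monocytes, a call lost without the third classical monocyte library (adjusted p = 0.0598) and with only the 6 libraries compared (0.0521). The next steps were -0.15 ± 0.10 (SE, adjusted p = 0.29) and 0.07 ± 0.10 (SE, adjusted p = 0.67). Ddx21, a nucleolar RNA helicase, was at 64.5, 70.5 and 68.4 CPM in classical monocytes, 78.8, 85.5 and 74.8 in early CMDMs, 61.9, 72.3 and 63.03 in late CMDMs and 89.9, 71.1 and 75.6 in resident-like macrophages. The early CMDM libraries were above both neighbours, but the differences of 0.23 ± 0.10 (SE, adjusted p = 0.0819) and -0.28 ± 0.10 (SE, adjusted p = 0.0553) did not pass, nor did 0.26 ± 0.10 (SE, adjusted p = 0.0748) from late CMDMs to resident-like macrophages. The first passed under DEGES scaling, at an adjusted p of 0.00871. The second passed under DEGES (0.0176), with library size alone (0.0429), with at least 10 counts in every library (0.0418) and with only the 6 libraries compared (0.0415).

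Mybbp1a, a nucleolar protein that restrains ribosomal RNA synthesis and binds transcription factors, had 38.7, 35.5 and 41.4 CPM in classical monocytes, 48.3, 53.1 and 44 in early CMDMs, 32.1, 36.4 and 37.1 in late CMDMs and 37.4, 37.4 and 35.9 in resident-like macrophages. All early CMDM libraries were above the other 9. Mybbp1a was higher by 0.33 ± 0.10 (SE, adjusted p = 0.0129) in early CMDMs than in classical monocytes and stood at -0.46 ± 0.10 (SE, adjusted p = 0.00218) in late against early CMDMs, while the last step of 0.07 ± 0.10 (SE, adjusted p = 0.678) did not pass. The first call was lost without the second classical monocyte or the second early CMDM library, with an adjusted p up to 0.0632. Rrp8 encodes nucleomethylin, a methyltransferase of ribosomal RNA that is also known to silence ribosomal DNA. Its levels were 7.44, 7.52 and 5.07 CPM in classical monocytes, 12.7, 12.4 and 11.1 in early CMDMs, 10.02, 10.1 and 9.63 in late CMDMs and 5.87, 4.54 and 5.7 in resident-like macrophages. Both CMDM fractions stood above the PD-L2lo fractions without overlap. Rrp8 was higher in early CMDMs than in classical monocytes by 0.85 ± 0.16 (SE, adjusted p = 0.000374). It was higher in late CMDMs than in classical monocytes by 0.57 ± 0.16 (SE, adjusted p = 0.0116), a call lost without the third classical monocyte library (adjusted p = 0.0522). In resident-like macrophages it stood at -0.88 ± 0.17 (SE, adjusted p = 0.000841) against late CMDMs and -1.16 ± 0.16 (SE, adjusted p = 2.12e-05) against early CMDMs. Rrp8 was the only member called lower in resident-like macrophages than in late CMDMs by TMM scaling.

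**Figure D4:**
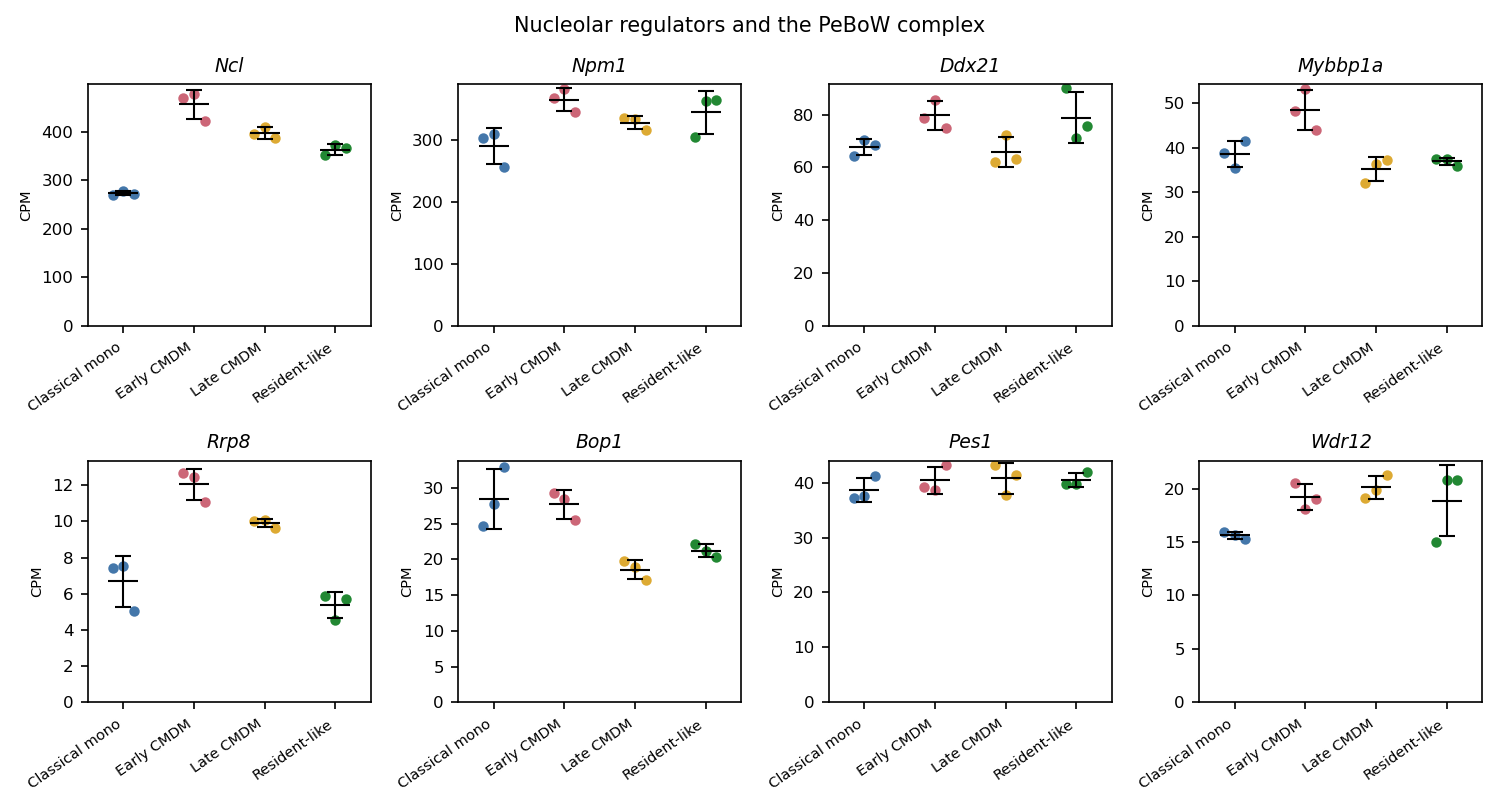
CPM (y axis, from 0, own scale per panel) of 5 nucleolar regulators and the 3 PeBoW genes in the 4 fractions (x axis). Points are libraries, and bars give the mean ± SD of 3. Ncl, Mybbp1a and Rrp8 are above classical monocytes in early CMDMs, Bop1 is lower in late CMDMs and resident-like macrophages, and the Pes1 points of all fractions overlap.

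The UTP-A complex, the first module on the nascent precursor, had 4 members in the list, of which 2 were higher in early CMDMs and 2 lower in late than in early CMDMs. Both times these were Wdr43 and Wdr75. Of all tested genes, 24.2% were higher in the first comparison and 17.5% lower in the second. Wdr75 was at 11.8, 13.3 and 13.02 CPM in classical monocytes and 21.2, 23.5 and 19.1 in early CMDMs, 11.6, 14.1 and 13.1 in late CMDMs and 10.7, 11.7 and 10.5 in resident-like macrophages. Wdr43 had 27.1, 27.6 and 24.2 CPM, 35.8, 38.4 and 30.8 CPM, 21.3, 24.5 and 24.98 CPM and 24.1, 29.2 and 25.8 CPM in the same order. For both genes the early CMDM libraries were above all others. Utp4 and Utp15, of the same complex, stayed between 20.8 and 26.7 CPM and between 19.9 and 26.7 CPM over the 12 libraries, and their fractions overlapped in the 2 CMDM comparisons.

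Of the 16 other SSU processome and 40S factors, 4 were higher and 3 lower in early CMDMs than in classical monocytes. These shares, 25% and 18.8%, were close to the 24.2% and 20.6% of all tested genes. The median log2 fold change of the 16 was 0.03, also close to that of all tested genes. The higher ones were Utp25, Utp20, Rrp12 and Utp18, and the lower ones Nop9, Utp23 and Rrp7a, all of which act in making 18S ribosomal RNA or the 40S subunit. Utp25 was one of the lowest genes of the list, at 8.605, 7.08 and 6.12 CPM in classical monocytes, 10.9, 11.9 and 8.91 in early CMDMs, 5.65, 6.55 and 7.81 in late CMDMs and 9.15, 13.8 and 8.87 in resident-like macrophages. Early CMDMs and resident-like macrophages lay above the other 2 fractions. Against late CMDMs, Utp25 in resident-like macrophages stood at 0.66 ± 0.20 (SE, adjusted p = 0.02), the largest upward call there, which was lost without the first or second late CMDM library or the second resident-like library (adjusted p up to 0.124) and with library size alone (0.0582). Nop9, an RNA-binding protein needed for 18S ribosomal RNA, went the other way. It had 24.5, 21.4 and 30.1 CPM in classical monocytes, 15.5, 17.05 and 19.6 in early CMDMs, 17.7, 13.7 and 15.02 in late CMDMs and 20.02, 13.4 and 16.2 in resident-like macrophages. The classical monocytes were above the other 9 libraries. The differences from classical monocytes were -0.54 ± 0.16 (SE, adjusted p = 0.0121) in early CMDMs, -0.72 ± 0.16 (SE, adjusted p = 0.00268) in late CMDMs and -0.61 ± 0.16 (SE, adjusted p = 0.0109) in resident-like macrophages. The first was lost without the third classical monocyte or the first early CMDM library (adjusted p up to 0.0705), and the third without the third classical monocyte or the second resident-like library (up to 0.0654).

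The PeBoW complex, made of Pes1, Bop1 and Wdr12, is needed to mature the 28S and 5.8S ribosomal RNAs. Bop1 was at 24.7, 27.7 and 33.01 CPM in classical monocytes, 29.3, 28.5 and 25.5 in early CMDMs, 19.7, 18.9 and 17.1 in late CMDMs and 22.1, 21.2 and 20.4 in resident-like macrophages. The first 2 fractions overlapped and lay above the last 2. The step from early to late CMDMs was -0.58 ± 0.12 (SE, adjusted p = 0.00138), and it held without each library in turn, while the steps before and after it, -0.04 ± 0.12 (SE, adjusted p = 0.815) and 0.19 ± 0.12 (SE, adjusted p = 0.26), did not pass. Pes1 had 37.1, 37.6 and 41.2 CPM in classical monocytes, 39.3, 38.6 and 43.3 in early CMDMs, 43.3, 37.7 and 41.3 in late CMDMs and 39.7, 39.7 and 42.01 in resident-like macrophages. All fractions overlapped, and no step passed at 0.06 ± 0.09 (SE, adjusted p = 0.612), 0.01 ± 0.09 (SE, adjusted p = 0.935) and -0.01 ± 0.09 (SE, adjusted p = 0.948). Wdr12 was at 15.9, 15.7 and 15.3 CPM in classical monocytes, 20.5, 18.1 and 19.03 in early CMDMs, 19.2, 19.9 and 21.3 in late CMDMs and 15.02, 20.8 and 20.9 in resident-like macrophages. The classical monocytes were below both CMDM fractions, but the steps were 0.30 ± 0.13 (SE, adjusted p = 0.0745), 0.07 ± 0.13 (SE, adjusted p = 0.734) and -0.09 ± 0.13 (SE, adjusted p = 0.638) and none passed, although the first did under DEGES scaling (adjusted p = 0.013). Of the other comparisons, late CMDMs against classical monocytes passed, at 0.36 ± 0.13 (SE, adjusted p = 0.0379), and that call was lost without any one library of either fraction (adjusted p up to 0.119).

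Of the 8 other 60S factors, 2 were higher (Rrp15 and Nop16) and 1 lower (Rrp1b) in early CMDMs than in classical monocytes, and 4 were lower in late than in early CMDMs (Nop53, Nop16, Rrp15 and Rrp1b). Of all tested genes, 24.2% were higher and 20.6% lower in the first comparison, and 17.5% were lower in the second. Rrp1b, a nucleolar 60S factor also known as a transcription and splicing cofactor, had the most negative log2 fold change among the called members. It was at 31.96, 37.2 and 44.9 CPM in classical monocytes, 21, 19.6 and 23.9 in early CMDMs, 15.7, 16.9 and 16.5 in late CMDMs and 23.04, 17.6 and 19.2 in resident-like macrophages. Classical monocytes were above all other libraries and late CMDMs below them. Against classical monocytes it stood at -0.82 ± 0.14 (SE, adjusted p = 0.000113) in early CMDMs, -1.22 ± 0.14 (SE, adjusted p = 4.25e-06) in late CMDMs and -0.93 ± 0.14 (SE, adjusted p = 7.82e-05) in resident-like macrophages. Its paralog Rrp1, at 66.5 to 93.3 CPM over the 12 libraries, was not called in any of the 6 comparisons.

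Nop16, a small 60S factor, was at 17.2, 18.4 and 18.5 CPM in classical monocytes, 22.4, 24.9 and 20.2 in early CMDMs, 18.8, 17.2 and 15.9 in late CMDMs and 25.5, 24.04 and 25.1 in resident-like macrophages. Early CMDMs and resident-like macrophages were above the other 2 fractions. Resident-like macrophages were higher by 0.53 ± 0.11 (SE, adjusted p = 0.00195) than late CMDMs and by 0.46 ± 0.11 (SE, adjusted p = 0.00506) than classical monocytes, and the second call was lost with library size alone (adjusted p = 0.0626). Nop53, a factor in 60S maturation and in the 5S ribonucleoprotein, had 163, 166 and 137 CPM in the early and 103, 110.4 and 95.01 CPM in the late CMDM libraries, which did not overlap. Noc2l, Noc3l, Nop2 and Rrp1 passed in neither of the 2 CMDM steps.

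Genes around these factors were counted from lists of the same machinery. Of 69 other ribosomal RNA processing and assembly factors, 17 were higher and 8 lower in early CMDMs than in classical monocytes, with a median log2 fold change of 0.04. The share higher, 24.6%, was close to the 24.2% of all tested genes, and 20.6% of those were lower. In late against early CMDMs 1 was higher and 20 were lower, with a median of -0.17, beside 14.4% and 17.5% of all tested genes. In resident-like macrophages against late CMDMs 9 were higher and 3 lower, and of all tested genes 12.7% and 15.5%. Of 15 genes of the RNA polymerase I machinery, which transcribes ribosomal DNA, 3 were higher and 2 lower in early CMDMs than in classical monocytes, and none of the 15 was higher and 6 were lower in late than in early CMDMs. Their shares in the first comparison, 20% higher and 13.3% lower, were below those of all tested genes. In the second, 40% were lower, against 17.5%. Polr1a, the largest subunit of the enzyme, was at 13.8, 11.1 and 14.03 CPM in classical monocytes, 14.2, 12.9 and 10.9 in early CMDMs, 8.43, 10.01 and 9.49 in late CMDMs and 13.3, 11.8 and 11.9 in resident-like macrophages. Late CMDMs were lowest in all 3 libraries. Polr1a was lower in late than in early CMDMs, at -0.44 ± 0.14 (SE, adjusted p = 0.0257), and higher in resident-like macrophages than in late CMDMs by 0.41 ± 0.14 (SE, adjusted p = 0.0433), and its difference of -0.03 ± 0.14 (SE, adjusted p = 0.868) between early CMDMs and classical monocytes did not pass. The call in resident-like macrophages was lost with DESeq2 (adjusted p = 0.0517), without a filter (0.0695), under DEGES scaling (0.108) and with library size alone (0.186). It was also lost without the second early CMDM library and without each of the 6 libraries compared (adjusted p up to 0.153), and the call in late against early CMDMs was lost without the first or the second early or the first or the third late CMDM library (up to 0.123). Polr1b, the second largest subunit, passed in none of the 3 steps, at 0.32 ± 0.21 (SE, adjusted p = 0.245), -0.45 ± 0.22 (SE, adjusted p = 0.133) and -0.17 ± 0.22 (SE, adjusted p = 0.631). Ubtf, the factor that opens ribosomal DNA to the polymerase, had 88.9, 93.1 and 94.5 CPM in the early and 66.6, 70.8 and 73.1 CPM in the late CMDM libraries, a difference of -0.39 ± 0.09 (SE, adjusted p = 0.00241). It differed by -0.05 ± 0.09 (SE, adjusted p = 0.656) between early CMDMs and classical monocytes.

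Myc itself had a larger log2 fold change in early CMDMs against classical monocytes than any of the 44 members. It was at 38.8, 44.2 and 37.4 CPM in classical monocytes, 93.7, 104 and 78.6 in early CMDMs, 48.98, 54.9 and 45.7 in late CMDMs and 37.4, 45.4 and 43.5 in resident-like macrophages. The early CMDM libraries were far above the other 9. Myc was higher by 1.20 ± 0.12 (SE, adjusted p = 5.94e-07) in early CMDMs than in classical monocytes. It stood at -0.88 ± 0.12 (SE, adjusted p = 3.07e-05) in late against early CMDMs and -0.24 ± 0.12 (SE, adjusted p = 0.148) in resident-like macrophages against late CMDMs, where it passed with library size alone (adjusted p = 0.0261). Of the 10 tested genes of the MYC network, 3 were higher and 2 lower in early CMDMs than in classical monocytes, and 1 was higher and 4 were lower in late than in early CMDMs. Their log2 fold changes ran from -0.74 to 1.35 and from -2.84 to 0.73, so another gene of the network changed more than Myc each time. Beside this list and the next, 24.2% of all tested genes were higher and 20.6% lower in the first comparison. In the second, 14.4% were higher and 17.5% lower. Of 12 cell cycle genes, 6 were higher and 1 lower in early CMDMs than in classical monocytes (median log2 fold change 0.32), and 2 were higher and 5 lower in late than in early CMDMs (median -0.28), beside medians of 0.25 and -0.21 for the biogenesis factors. Their summed level in CPM was 348 to 376 for classical monocytes, 367 to 388 for early CMDMs, 425 to 437 for late CMDMs and 549.7 to 584 for resident-like macrophages. Of these 12, 9 were higher in resident-like macrophages than in classical monocytes, where 10.8% of all tested genes and 4 of the 44 biogenesis factors were.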

How the data were processed

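The authors trimmed the reads with cutadapt 4.1 and mapped them with Bowtie2 2.4.5, on one strand, to the reference RNA of GRCm38, per the labels and the paper's methods. They deposited raw counts, summed over the transcripts of each gene symbol and not normalized, so that reads of near-identical copies could be split between genes. All value columns were used, so the number left unused was 0. Groups were taken from the labels.

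Differences between fractions were tested with edgeR 4.0.16 (R 4.3.3). The model had 1 coefficient for each fraction, was fitted to all 12 libraries together by robust quasi-likelihood, and used TMM scaling and the filterByExpr filter with a minimum count of 10. Each of the 6 comparisons was adjusted by Benjamini-Hochberg over all 22118 tested genes, with a threshold of 0.05, and each SE is the size of the log2 fold change divided by the square root of its F value. The biological coefficient of variation was 13.2%. The study's own package was not run here, and its DEGES strategy was rebuilt from edgeR with 3 rounds. The other alternatives were RLE size factors, library size alone, scaling by 10 leukocyte genes, leaving out genes over 1% of counts, no filter, at least 10 counts in every library, DESeq2 1.42.0, a replicate block, leaving out each library, and fitting only the 6 libraries compared.

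The members, role lists and motifs were chosen with earlier results of these data known, so lists are described by counts and medians beside those of all tested genes, with no test of a list. Named with library values and tests were the box C/D, box H/ACA and PeBoW genes, Ncl, Npm1, Ddx21 and Mybbp1a, for each comparison the 2 called members with the largest change in each direction, and Myc, Polr1a, Polr1b and Ubtf. Other members are given by counts and levels, and those whose library values are shown beyond this rule (Wdr43, Wdr75 and Nop53) were chosen after their values were seen. Replicate libraries were compared before averaging, and a chi-square test of their counts gave 4.63 to 24.7 times its degrees of freedom, more than sampling noise gives, so all 12 were kept as separate libraries. Total counts of 12537178 to 19844113 set the precision, and limits from 3 counts cover counting error only, since the reads carry no molecular identifiers. Positions and transcript lengths come from GENCODE M21 and promoters from RefSeq, both on GRCm38. Utp25 was matched through its synonym Diexf. The single-cell data and the other experiments of the study were not analysed here.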

Additional observations from a re-analysis of the deposited data

How the results depend on the processing

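Library size alone, DEGES and leukocyte scaling moved counts by over 1.5 times or medians by more than the spread between libraries (SD 0.0556). With library size alone, members lower were 6 in resident-like macrophages against late CMDMs, 22 against early CMDMs and 9 against classical monocytes, where 0 were higher, and the medians were -0.084, -0.28 and -0.18. Of all tested genes, 21.6%, 32% and 20.5% were lower in the same order, and 6.5% were higher against classical monocytes. With DEGES, 26 were higher in early CMDMs against classical monocytes (median 0.38), where 30.3% of all tested genes were higher. The medians were -0.28 in late against early CMDMs and 0.058 in late CMDMs against classical monocytes. In resident-like macrophages DEGES gave 2 lower against late CMDMs (median -0.041) and 21 lower against early CMDMs (-0.27). Of all tested genes, 19.3% and 31.9% were lower there. Leukocyte scaling gave 44 higher and 0 lower (median 2.02) in early CMDMs against classical monocytes, 44 lower (-1.16) in late against early CMDMs, and 36 higher and 0 lower (0.82) in late CMDMs against classical monocytes. Of all tested genes, 91% were higher in the first, 71% lower in the second and 65.5% higher in the third. In resident-like macrophages leukocyte scaling gave 0 higher and 35 lower (-0.64) against late CMDMs, 44 lower (-1.74) against early CMDMs, and 2 higher and 1 lower (0.13) against classical monocytes. Of all tested genes, 57.6% were lower in the first and 89.9% in the second, and in the third 9.89% were higher and 7.54% lower. These scalings move every gene of a library by the same amount, and the members' median relative to all tested genes moved by less than 0.0556. For the remaining alternatives, 1 member was higher in late against early CMDMs with the 6 libraries alone, where 17.9% of all tested genes were higher.

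Of 68 tests of named genes, 20 changed sign with a call in either fit, all under leukocyte scaling. Rrp1b and Nop9 in early CMDMs against classical monocytes were called in both directions. In edgeR's test after this scaling, Nop9 in late CMDMs against classical monocytes had an adjusted p of 0.638. In resident-like macrophages against late CMDMs, Fbl (0.721), Nop56 (0.432), Polr1a (0.278) and Utp25 (0.962) did not pass either. By leukocyte scaling the log2 fold changes in early CMDMs against classical monocytes were 1.56 for Fbl, 1.58 for Nop56, 1.74 for Bop1, 0.92 for Rrp1b, 1.20 for Nop9, 1.74 for Polr1a and 1.71 for Ubtf, and in late CMDMs 0.11 for Nop9 against classical monocytes and -0.92 for Pes1 and -0.87 for Wdr12 against early CMDMs. In resident-like macrophages against late CMDMs they were -0.076 for Fbl, -0.16 for Nop56, -0.50 for Gar1, -0.49 for Bop1, -0.61 for Npm1, -0.43 for Ddx21, -0.62 for Mybbp1a, -0.28 for Polr1a, -0.58 for Ubtf and -0.014 for Utp25. All 68 kept direction and side of the threshold with RLE size factors and without genes over 1% of counts, 67 with each of the other filters, 66 with the 6 libraries alone, 65 with DESeq2, 62 with DEGES and 60 with library size alone.

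Leaving out each library in turn gave 2 to 4 higher and 6 to 10 lower (medians -0.015 to 0.051) in late CMDMs against classical monocytes, and 2 to 6 higher (medians -0.024 to 0.10) in resident-like macrophages against classical monocytes. Of all tested genes, 14.6% to 18.5% were higher and 14% to 17.5% lower in the first, and 8.63% to 11.1% higher in the second. Leaving out libraries gave 0 to 1 higher in late against early CMDMs, 1 to 2 lower in resident-like macrophages against late CMDMs and 0 to 3 higher against early CMDMs. The shares of all tested genes were 9.59% to 16.1%, 11.7% to 16.4% and 16.9% to 21.8% in the same order. The counts of 16 higher in early CMDMs against classical monocytes and 15 lower in late against early CMDMs ranged over 12 to 19 and 11 to 16. The shares of all tested genes were 20.9% to 24.5% and 13.1% to 18.2%. The libraries of different fractions share replicate numbers, and the main model did not pair them by number. Of 18 same-numbered pairs, 4 had deviations correlated over 0.1 and 2 below 0 (from -0.0987 to 0.248). Pairs of different numbers averaged -0.0334, and 10 of 12 libraries correlated best on average with their own number. Whether the numbers pair the samples was therefore not settled. With the replicate block 17 members were higher in early CMDMs against classical monocytes, 15 lower in late against early CMDMs, and 2 lower in resident-like macrophages against late CMDMs. Of all tested genes, 25.1%, 18.5% and 17.1% were called in these directions. Among the named tests the block changed the call of Nop10 alone, which then passed in early CMDMs against classical monocytes (0.46, adjusted p = 0.0229) and in resident-like macrophages against late CMDMs (-0.45, adjusted p = 0.0389).

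With 3 libraries per fraction, an exact permutation test of one gene could not go below p = 0.1, so calls rest on the spread shared over genes.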

Other observations

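The pseudogene Utp14b-ps1, on chromosome 3, was near the limit of detection. Its level was between 0.239 and 0.835 CPM over the 12 libraries, where 3 counts correspond to 0.151 to 0.239 CPM, and its log2 differences carried SEs of 0.39 to 0.48. It was called in none of the 6 comparisons. The ribosomal RNA gene CT010467.1 took 8.04% to 11.2% of the counts of each library although the RNA was selected by oligo(dT). Its share was 9.72% to 10.7% in late CMDMs, above the 8.37% to 9.51% of resident-like macrophages, and the other pairs of fractions overlapped.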
